A study of Homo sapiens with 20 samples.

Results

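The comparison described here is high against low leucine at 0 min in THLE-3 cells, the starting point of a time course. It rests on 4 of the 20 arrays of the series, those whose titles give 0 min, and sets 2 arrays of high leucine against 2 arrays of low leucine. THLE-3 cells are an established human line, made from epithelial cells of adult liver by adding the SV40 large T antigen, and no other line was used. The low arrays are labelled as cells in 0.1 mM leucine and the high arrays as cells in 2.0 mM leucine. Each level has 1 array from a first and 1 from a second experiment. The labels record that cells of the low array of the first experiment were maintained at that level, and they give neither how long any cells had been in their medium at 0 min nor another agent. Nor do they say whether an experiment means a separate culture. The p-values below come from a fit over all 20 arrays. They therefore speak of the spread among the arrays of the series, which may be technical. RNA was read on the Affymetrix human HG-U133 array, part A, on which a gene has 1 or more probe sets, each a group of short probes to part of its transcripts.

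Leucine is an essential branched-chain amino acid. Cells sense it through Sestrin2 and related proteins, which set the activity of the kinase complex mTORC1. Active mTORC1 phosphorylates the 4E-BP proteins and so frees EIF4E, which binds the cap of messenger RNA and starts translation. When an amino acid is scarce, uncharged transfer RNA activates the kinase GCN2, and translation of the transcription factor ATF4 rises. ATF4 then induces ASNS, DDIT3, TRIB3 and amino acid transporters.

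The promoter sequences of EIF4E, IFRD1 and SRF are shown because EIF4E had the smallest p of all probe sets at 0 min, IFRD1 was lower at 0 min and again at 480 min, and SRF is the transcription factor among the few genes that were higher. Each is the 250 bases before the gene's start in RefSeq, build GRCh38.p14, read 5′ to 3′ along the gene's strand. EIF4E lies on the minus strand, with the window at chr4:98929134-98929383. IFRD1 lies on the plus strand, with the window at chr7:112450258-112450507, and SRF on the plus strand at chr6:43171019-43171268. Capitals mark the letters CACGTG (E-box), TGACG (core of a cAMP response element) and CCAAT, a common promoter element, on either strand.
EIF4E: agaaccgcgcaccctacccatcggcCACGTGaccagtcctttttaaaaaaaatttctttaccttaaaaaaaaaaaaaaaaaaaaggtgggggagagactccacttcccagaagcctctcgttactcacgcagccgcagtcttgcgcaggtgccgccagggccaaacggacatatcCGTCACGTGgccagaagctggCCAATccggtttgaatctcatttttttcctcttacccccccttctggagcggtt
IFRD1: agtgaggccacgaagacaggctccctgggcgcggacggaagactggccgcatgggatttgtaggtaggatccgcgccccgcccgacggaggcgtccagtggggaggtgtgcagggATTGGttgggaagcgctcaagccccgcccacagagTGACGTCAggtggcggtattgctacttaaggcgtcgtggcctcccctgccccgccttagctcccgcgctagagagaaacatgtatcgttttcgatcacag
SRF: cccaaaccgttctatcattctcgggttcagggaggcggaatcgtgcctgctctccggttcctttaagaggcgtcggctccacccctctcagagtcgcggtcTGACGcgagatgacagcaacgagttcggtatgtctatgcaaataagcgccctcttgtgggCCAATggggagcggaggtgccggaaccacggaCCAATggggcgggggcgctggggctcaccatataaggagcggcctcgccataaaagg
The EIF4E window holds 2 E-boxes, whose first bases lie 225 and 72 bases before the start, and the nearer one overlaps the TGACG core at 75. The IFRD1 window holds the TGACG core on both strands in 1 overlapping match, 100 and 97 bases before the start. The SRF window holds 1 TGACG core and 2 copies of CCAAT, and EIF4E and IFRD1 hold 1 each. None of these windows holds TGATGNAA, the core of the amino acid response element. Over the 6763 kept genes with a RefSeq window, CACGTG was found in 8.69%, TGACG in 29.7%, CCAAT in 35.6% and TGATGNAA in 1.57%. A match describes letters only. Of the 59 genes lower in high leucine only 43 had a window, under the 80% needed, so the comparison of their share with that of all genes is void.

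Few probe sets differed between high and low leucine at 0 min, and most that passed the test were lower in high leucine. With the experiment as a term (the blocked fit), 77 of 13329 probe sets had an adjusted p under 0.05, which is 0.578% of those tested. Of these, 66 were lower (0.495%) and 11 higher (0.0825%) in high leucine. They stood for 59 lower and 9 higher genes, with 3 that carry several symbols and 6 that carry none, and the median over all probe sets was 0.01 on the log2 scale. The lower set included EIF4E, RAD21, HTATSF1, PIK3C2A and IFRD1, and the higher set SRF, DCAF15 and APOE. In the fit without the experiment term (the unblocked fit) 0 probe sets passed (0% of those tested), with 862 below an unadjusted p of 0.05 and a smallest adjusted p of 0.473. The blocked fit had 2266 at that unadjusted level, against 666.45 that chance gives on average. "Lower", "fell" and "rose" below refer to the blocked fit, tested by limma with Benjamini-Hochberg adjustment, with n = 2 arrays per group, and ± is a standard error. Without the low array of the second experiment 1 probe set passed, that of EIF4E, and without the high array of the first experiment 12 passed.

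EIF4E, the cap-binding protein of translation initiation, gave 658.2 and 583.3 units in low leucine and 384.6 and 356.9 in high leucine, first and second experiment in that order. Both high arrays lay below both low arrays. The difference was -0.55 ± 0.05 on the log2 scale (adjusted p = 0.000509). That is 1.46-fold on values with the pseudocount of 165.2 added, while the deposited means, 620.7 and 370.7 units, differ 1.67-fold. A pseudocount 4 times larger gave -0.31 and one 4 times smaller -0.68. The larger one shrank 30 of the 51 named called differences by over 1.5 times. It was called in all of the 13 alternatives with the experiment as a term that kept this probe set, with adjusted p from 0.000367 to 0.0162. The other kept probe set of EIF4E, which is brighter, read 1483 and 1141 units in low leucine and 1430 and 823.4 in high leucine, with overlap, and its difference of -0.19 ± 0.10 did not pass. In the 33 measured translation initiation and elongation factors, each by its brightest probe set, the median difference was 0.02. Of them 1, EIF4E, was lower and 0 higher, and 9 had an unadjusted p under 0.05. Over all 8280 genes, 17% were at that level by their brightest probe set and 0.821% were called, the shares against which the counts of the lists are to be read. In this and the other lists a call counts any kept probe set of a gene, and the medians and unadjusted counts use the brightest.

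**Figure D1:**
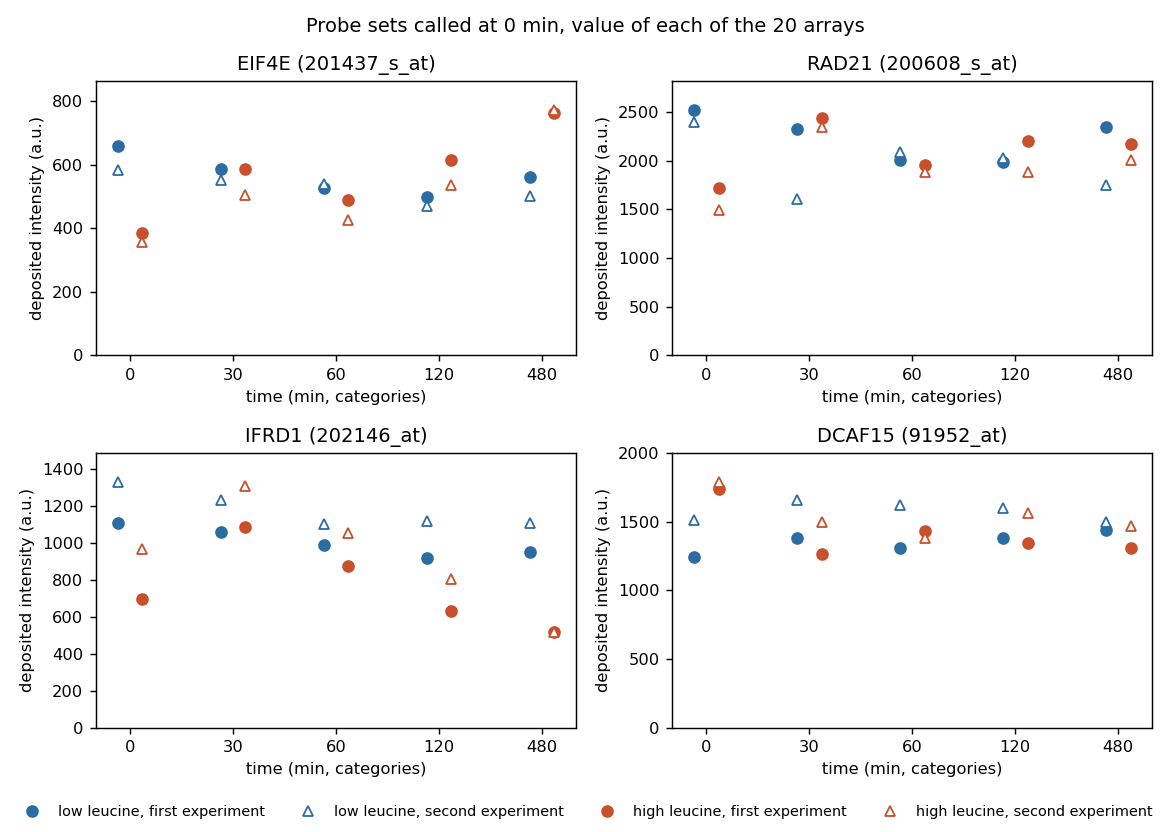
Deposited intensity (arbitrary units, vertical) of the called probe sets of EIF4E, RAD21, IFRD1 and DCAF15 on each of the 20 arrays, by time (min, spaced as categories), with 1 point per array, coloured by leucine level and shaped by experiment. At 0 min EIF4E stands at 384.6 and 356.9 in high leucine against 658.2 and 583.3 in low leucine.

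RAD21, HTATSF1, SNRPA1, HNRNPR and HNRNPA3 were each lower through 1 of their kept probe sets. RAD21, the kleisin subunit that closes the cohesin ring, read 2516 and 2396 units in low leucine and 1717 and 1493 in high leucine, with no overlap, a difference of -0.51 ± 0.09 (adjusted p = 0.033). Its other probe set read 2236 and 1574 in low leucine and 2358 and 1607 in high leucine, a difference of 0.11. The 13 measured genes of cohesin, its loaders and its regulators had a median of -0.06, with 1 lower and 0 higher by the blocked fit and 3 at an unadjusted p under 0.05. HTATSF1, a splicing factor that binds the U2 particle, was lower by -0.44 ± 0.08, from 966.2 and 977.7 to 618.4 and 711 units. SNRPA1, a protein of that U2 particle, differed by -0.43 ± 0.09, with 1154 and 1184 against 793.4 and 810.6 units. HNRNPR and HNRNPA3, which bind nascent RNA, differed by -0.38 and -0.35. None of the other kept probe sets of these genes was called. They differed by 0.04 for HTATSF1, 0.08 and 0.07 for SNRPA1, -0.12 for HNRNPR, and -0.07 and -0.04 for HNRNPA3. SNRPA1 and HNRNPA3 are not among the genes of the splicing list. Of its 42 measured splicing and RNA-binding factors, 2 were lower, HTATSF1 and HNRNPR, and 0 were higher, with a median of -0.03 and 7 at an unadjusted p under 0.05.

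The largest fall of all, -0.62 ± 0.08, was that of a probe set that carries several symbols and names no gene here. The next genes are placed together by known role, which no list counted or tested, apart from the phosphoinositide kinases. PIK3C2A, a class II phosphoinositide 3-kinase, read 945.4 and 1068 units in low leucine and 700 and 648.4 in high leucine, a difference of -0.46 ± 0.07 (adjusted p = 0.0227). Among the 16 phosphoinositide kinases measured it was the 1 that was lower, 0 were higher, 1 had an unadjusted p under 0.05, and the median was 0.02. SEC23B and COPB1, coat proteins of vesicles leaving and returning to the endoplasmic reticulum, differed by -0.40 and -0.31. SNAP23, which drives fusion at the plasma membrane, differed by -0.36, and LAMP2, a lysosomal membrane protein, by -0.41. LYPLA1, an enzyme that removes palmitate from proteins, read 1521 and 1457 against 1137 and 940.5 units, a difference of -0.42 ± 0.07. ACSL1, which activates long fatty acids, read 949.4 and 598.2 against 677.6 and 431.8, so the groups overlapped, yet each experiment fell by about the same amount (-0.38 and -0.34). The other kept probe sets of SEC23B, COPB1, SNAP23, LYPLA1 and ACSL1 differed by -0.02, -0.10, -0.06, -0.10 and -0.02. Those of LAMP2 differed by -0.14 and -0.05, and none of these was called.

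AASDHPPT, PANK3, CSGALNACT2, PLOD2, PRPS1 and AZIN1 were each lower through 1 of their kept probe sets, and no list counted them as a group. Their other kept probe sets, none called, differed by -0.05, 0.08, -0.38, -0.20, 0.08 and -0.03, in that order. AASDHPPT, which attaches the phosphopantetheine arm to carrier proteins, read 1534 and 1587 units in low leucine and 1049 and 980.9 in high leucine. Its difference was -0.51 ± 0.08 (adjusted p = 0.0227), and PANK3, a pantothenate kinase at the first step of coenzyme A synthesis, differed by -0.39 ± 0.06. CSGALNACT2, a transferase that starts and extends chondroitin sulfate chains, read 445.7 and 450 against 208.4 and 297, a difference of -0.56 ± 0.09. PLOD2, a lysyl hydroxylase of collagen, differed by -0.30, and PRPS1, which makes the ribose precursor of nucleotides, by -0.30. AZIN1, the antizyme inhibitor that raises polyamine synthesis, differed by -0.38. The probe set of UBBP1, a ubiquitin pseudogene, differed by -0.53, but it shares sequence with other ubiquitin genes and its source is uncertain.

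IFRD1, a transcriptional co-regulator induced by stress and differentiation signals, read 1106 and 1326 units in low leucine and 693.1 and 967.8 in high leucine. The difference was -0.45 ± 0.08 (adjusted p = 0.0325), and its other probe set differed by -0.23 ± 0.09. It was the 1 called gene of the 36 measured on the list of the amino acid response, where 0 were higher, 6 had an unadjusted p under 0.05 and the median was 0.01. ATF4 read 5381 and 4671 in low leucine and 4625 and 4831 in high leucine, with overlap, a difference of -0.01 ± 0.07. The differences of ASNS, DDIT3, TRIB3 and SLC7A11 were -0.09, 0.01, 0.03 and -0.10, none past the threshold. PMAIP1, a pro-death BCL2 family member on the list, read -0.04 on its brightest probe set and -0.55 ± 0.13 (adjusted p = 0.0655) on its other one.

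The remaining sensors and users of leucine held 0 called probe sets by limma. In the 27 measured genes of mTORC1 and leucine sensing the median was 0.05 and 6 had an unadjusted p under 0.05, among them SEH1L, a GATOR2 component, at -0.29 ± 0.07 (adjusted p = 0.0637). The 15 genes of branched-chain amino acid use had a median of -0.00444 with 2 at that level, and BCAT1 and BCAT2, the transaminases of leucine, differed by 0.05 and 0.06. SLC7A5, the main leucine transporter subunit, differed by 0.11 ± 0.21. The 16 cytosolic aminoacyl-tRNA synthetases had a median of 0.04 with 2 at an unadjusted p under 0.05.

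Other lists held at most 1 call. None was called among 19 endoplasmic reticulum stress genes (median -0.04, 1 at an unadjusted p under 0.05), 13 cytosolic heat shock genes (-0.02, 0 at that level), 26 immediate early genes (-0.01, 1), 29 cell cycle genes (0.02, 4) and 16 genes of cholesterol synthesis and uptake (0.04, 5). APOE, the lipoprotein ligand of the low-density lipoprotein receptor, was the 1 higher gene of 11 apolipoproteins and lipid transport genes (median 0.08, 3 at an unadjusted p under 0.05). The median over the 8280 genes by brightest probe set was 0.02.

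Among the 11 higher probe sets the largest difference was that of DCAF15, a substrate receptor of a cullin ubiquitin ligase. It read 1247 and 1514 units in low leucine and 1742 and 1787 in high leucine, a difference of 0.39 ± 0.07 (adjusted p = 0.0378). SRF, the serum response factor that drives immediate early and actin genes, read 537.4 and 660.1 against 757.1 and 753.5, a difference of 0.31 ± 0.06 (adjusted p = 0.0397). RHOT2, a GTPase that anchors mitochondria to motors, differed by 0.28, COBL, an actin nucleator, by 0.29, and ACTR5, a subunit of the INO80 remodeller, by 0.26. APOE read 554.2 and 658.4 against 663.5 and 795.8 units, a difference of 0.25 ± 0.05. The other probe sets of APOE, at signal percentiles 23.6 and 32.8, were removed as weak, so no other reading of this gene was tested. CYTH4 and TRIM10 differed by 0.27 and 0.25, and the probe set of OR1A1, an odorant receptor, by 0.35. The other kept probe sets of DCAF15, SRF, CYTH4 and TRIM10, none called, differed by 0.10, 0.10, 0.03 and 0.06.

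Cell type markers were read on the same arrays. Of 18 hepatocyte markers 0 lay above the 90th percentile of all probe sets, and ALB lay at 9.94. Of 12 biliary and epithelial markers 4 did, the keratins KRT7, KRT8, KRT18 and KRT19, as did 5 of 15 stellate and fibroblast markers, such as VIM at 99.2. The 12 endothelial and blood cell markers held 0 above it. Below the 40th percentile lay 8 of the 18 hepatocyte markers, 6 of the 12 biliary and epithelial, 2 of the 15 stellate and 5 of the 12 endothelial and blood markers. The brightest hepatocyte markers were CYP3A4 at 89.5, HP at 78.9 and APOA1 at 69.1, and among the weak biliary and epithelial markers were EPCAM at 12.9 and CDH1 at 7.03. Summed intensity over the probe sets of the biliary and epithelial list was 14950 and 24560 units in low leucine and 15360 and 23980 in high leucine. The stellate list summed to 40320 and 36620 against 38530 and 36950, the hepatocyte list to 12140 and 12730 against 12390 and 12820, and the endothelial and blood list to 7957 and 8879 against 8338 and 8935. On average these sums differed more between experiments than between leucine levels for each of the lists. The part of cell makeup in the gene differences was not tested. In bulk RNA fewer cells of a type and less RNA per cell cannot be told apart. Of marker genes, KRT7 was called, by a probe set at percentile 50.2 with -0.43 ± 0.08, while its bright probe set at percentile 96.1 differed by 0.05. Medians of the 10 hepatocyte, 6 biliary, 13 stellate and 7 endothelial and blood genes kept were 0.06, 0.05, 0.01 and 0.06, with 4, 1, 1 and 1 below an unadjusted p of 0.05 and no other call.

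Differences within the experiments pointed the same way for called probe sets but less so over all. The sign was equal in the first and second experiment for all 77 called, as their choice makes likely. Over all 13329 probe sets the share was 60.4%, and the differences of the experiments correlated at r = 0.327 across probe sets, which are not independent. By experiment, the 66 lower probe sets had medians of -0.33 (first) and -0.37 (second), and the 11 higher ones 0.30 and 0.25. Deposited values of the high and low arrays did not overlap in 68 of the 77 called, against 24% of all probe sets and a called share of 0.578%. As with the sign, the choice of the 77 on the same arrays makes this likely. The first and second experiments differed more than the leucine levels did, and blocking gave a smaller standard error for 97.9% of them, with a median of 0.0668 against 0.101.

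**Figure D2:**
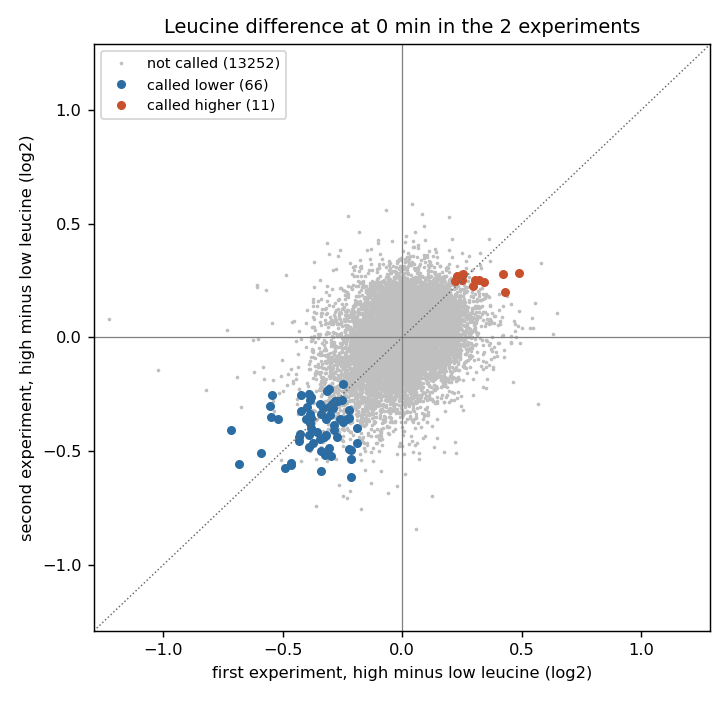
Log2 difference, high minus low leucine at 0 min, in the first experiment (horizontal) and the second experiment (vertical), with 1 point per probe set and the called sets coloured. Called sets lie in the quadrants of equal sign, and over all probe sets r is 0.327.

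Other probe sets of a called gene moved far less than the called one. In 43 called genes with 53 other kept probe sets, 67.9% of the others had the same sign, and the median ratio of the other to the called difference per gene was 0.109. The ratio was at least 0.5 in 6 genes, and 0 genes had another probe set called, with another at an unadjusted p under 0.05 in 9, in the same direction in 8 and in the opposite direction in 1, SOX15. Those 6 were CSGALNACT2, IFRD1, ATP2C1, PLOD2, GMFB and RHOT2. The other probe set of CSGALNACT2 read 964.1 and 1130 units in low leucine and 587.2 and 939.3 in high leucine, a difference of -0.38 ± 0.10. ATP2C1, the calcium and manganese pump of the Golgi, differed by -0.32 on the called probe set and by -0.36 and -0.13 on the others. For RHOT2 the others were at 0.26 and 0.12 beside 0.28. Over the 38 lower genes the ratio was 0.0618, and over the 5 higher genes 0.27. Because the called probe set was picked for its size, a ratio under 1 can follow from the choice alone, so the same measure is given at another time. At 480 min, in genes called within the same size range, 0.25 to 0.561, 92.3% of 221 other probe sets had the same sign. The ratio there was 0.628, and 46 of 144 genes had another probe set called. The size range was set after the data were seen. At 480 min 545 probe sets were called, 4.09% of those tested, against 77 at 0 min. The choice may thus lower the ratio to a different degree at each time, which the size range does not correct. How much of the gap between the ratios follows from it was not tested.

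The pair of brightest probe sets of each of 2438 genes was not chosen by its change. Their differences correlated at r = 0.268 at 0 min, with 61% of the same sign, and at 30, 60, 120 and 480 min at 0.139, 0.235, 0.371 and 0.684. At 0 min both of the pair had an unadjusted p under 0.05 in the same direction in 78 genes, 43 lower and 35 higher, and in opposite directions in 23. By the mean of the pair, CSGALNACT2 and IFRD1 led the 43, followed by MCFD2, a cargo receptor partner in the secretory pathway, at -0.20 and -0.47 on its brightest and second probe sets, and SNX2, a sorting nexin of endosomes, at -0.22 and -0.36. EIF3M, a subunit of initiation factor eIF3, was at -0.23 and -0.29. MCFD2, SNX2 and EIF3M were not called and were named after their values were seen.

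**Figure D3:**
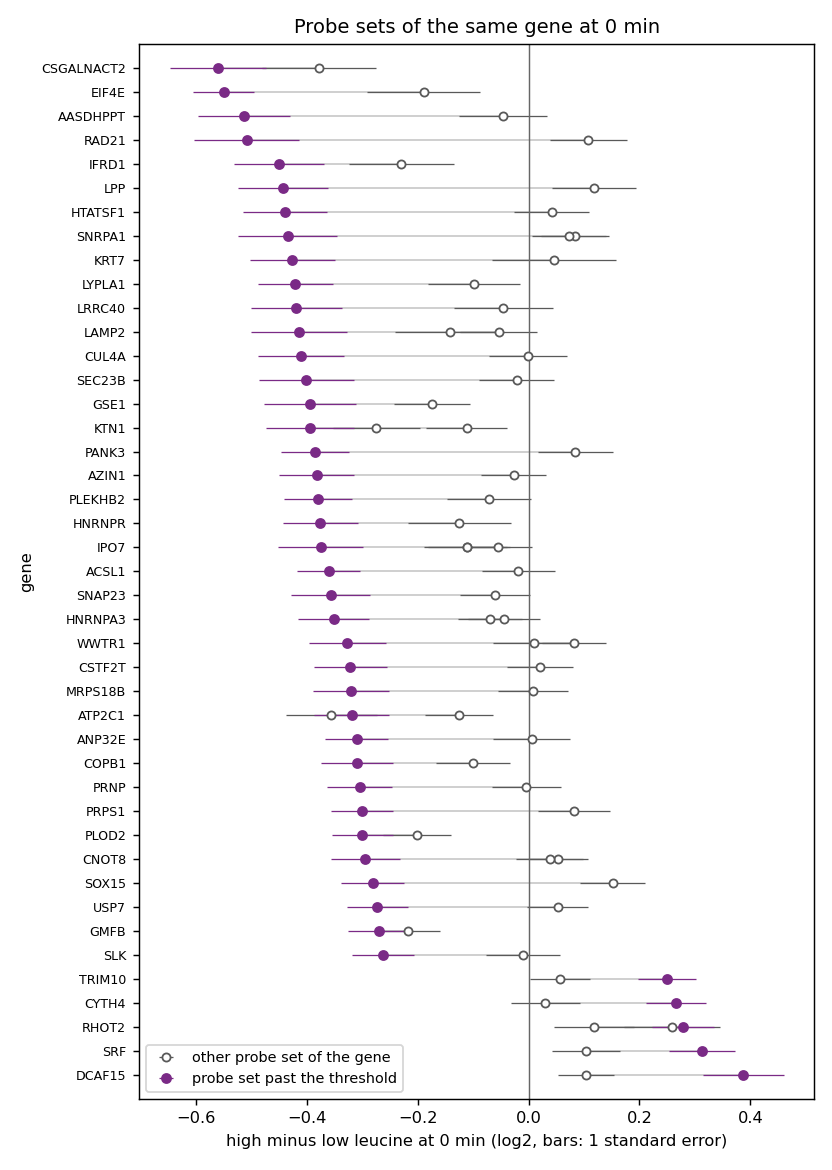
Log2 difference, high minus low leucine at 0 min (horizontal), of every kept probe set of the 43 called genes with more than 1, with a row per gene, filled points for called and open points for other probe sets, and bars of 1 standard error. The open points lie nearer 0 for most genes, as for RAD21 at 0.11 beside -0.51 and EIF4E at -0.19 beside -0.55.

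The kind of the called probe sets is set beside that of all kept probe sets as a description, with no test. For _x_at names and gene length, the lower and higher sets lay on opposite sides of all kept probe sets. Affymetrix names that end in _at without a further letter stand for probes meant for 1 transcript. They made up 63.6% of the lower and of the higher set against 46.6% of all kept probe sets. Names that end in _x_at made up 3.03% of the lower set, 18.2% of the 11 higher probe sets and 13.2% of all. Gene length in RefSeq, taken once per probe set, had a median of 41930 bases in the lower set and 11230 in the higher set. Over all kept probe sets it was 30840, where a gene with several probe sets counts more than once. Signal was similar, at a median percentile of 71.8 for the lower set and 62.2 for the higher set, against 70 over all.

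By the median, the called probe sets stood further from the later arrays on the high-leucine arrays at 0 min than on the low ones. Taking each array's log2 value minus the mean of the 8 later arrays of its experiment, the median over the lower set was -0.239 and -0.219 on the high arrays, first and second. On the low arrays at 0 min it was 0.102 and 0.168, and on the later arrays it ran from -0.0836 to 0.126. The low array of the second experiment, at 0.168, thus lay outside the range of the later arrays too. The high array was the lowest of the 10 of its experiment in 59 of 66 probe sets in the first, 46 in the second and 43 in both. The low array at 0 min was the highest in 26, 32 and 16. In the higher set the high arrays were at 0.213 and 0.132 and the low arrays at -0.105 and -0.0744. These are descriptions, since the members were chosen on the same 4 arrays. Mean deposited intensity was 792.3 and 843.7 on the low arrays and 774.8 and 806.7 on the high arrays, and 806.7 was the lowest of the second experiment; its part in these differences was not tested. On values as deposited, with no normalization between arrays, 194 probe sets were called.

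**Figure D4:**
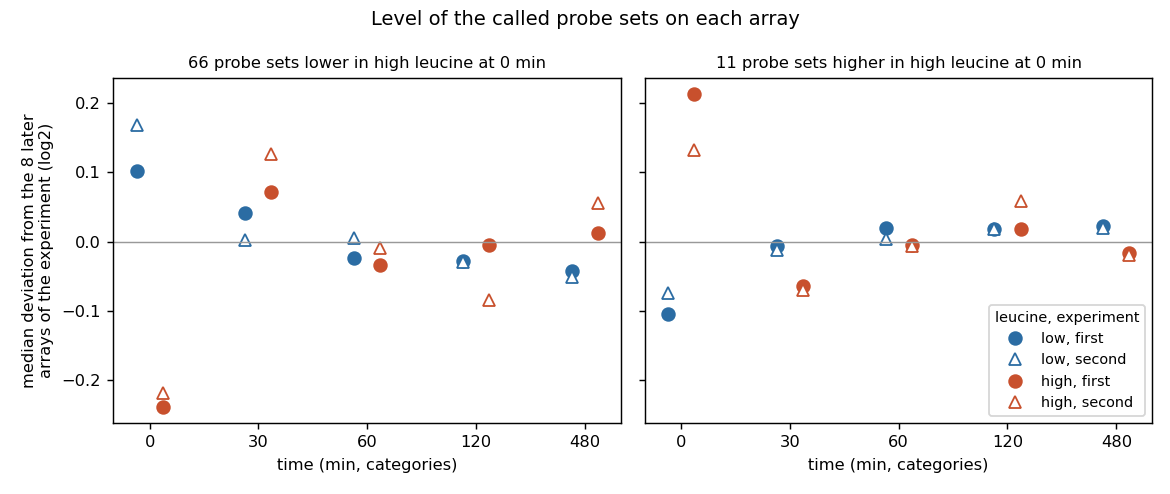
Median log2 deviation (vertical) of the 66 lower (left) and 11 higher (right) probe sets on each of the 20 arrays from the mean of the 8 later arrays of the same experiment, by time (min, spaced as categories). High-leucine arrays at 0 min stand at -0.239 and -0.219 for the lower set and at 0.213 and 0.132 for the higher set.

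At 30 min few of these differences kept their sign. Of the 66 probe sets lower at 0 min, 62 were above 0 at 30 min, with a median of 0.08, while 48.9% of all probe sets were below 0. At 60 and 120 min the medians were -0.02 and -0.03, and at 480 min 0.08 with 47 above 0. Of the 11 higher sets 10 were below 0 at 30 min. The difference between 0 min and the mean of the later times, which uses the same 0 min arrays, was called for 142 probe sets, 1.07% of those tested, 112 rising and 30 falling. At 30 and 60 min limma called 0 probe sets, with 593 and 419 below an unadjusted p of 0.05.

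The called probe set of EIF4E turned over the time course. Its difference was -0.55 at 0 min, -0.03 at 30 min, -0.17 at 60 min, 0.20 at 120 min and 0.43 at 480 min (adjusted p = 0.000341). At 480 min it read 560.7 and 503.2 units in low leucine and 762.1 and 771.2 in high leucine, so the groups were apart in the opposite order. The other probe set of EIF4E read 1721 and 912.6 against 2238 and 1780 units there, a difference of 0.58 (adjusted p = 0.00435). At 0 min that other probe set differed by -0.19 and was not called. Of the 77 probe sets, 7 were called at both 0 and 480 min, 9.09% of the first list and 1.28% of the second. The called probe sets of PIK3C2A, GMFB, a regulator of actin branching, and WWTR1, the co-activator TAZ, were lower at 0 min. At 480 min they were higher, at 0.31, 0.30 and 0.35, and a probe set that carries several symbols turned in the same way. For WWTR1 the 2 other kept probe sets differed by 0.08 and 0.01 at 0 min and by 0.04 and 0.03 at 480 min. For GMFB the other was at -0.22 and 0.19, and none of these others was called at either time. The called probe sets of IFRD1 and PRNP, the prion protein gene, were lower at both, and that of IFRD1 was at -0.79 at 480 min. On its other kept probe set IFRD1 differed by -0.23 at 0 min, not called, and by -0.70 at 480 min, called. PRNP differed on its other one by -0.00415 at 0 min and -0.21 at 480 min, neither called.

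**Figure D5:**
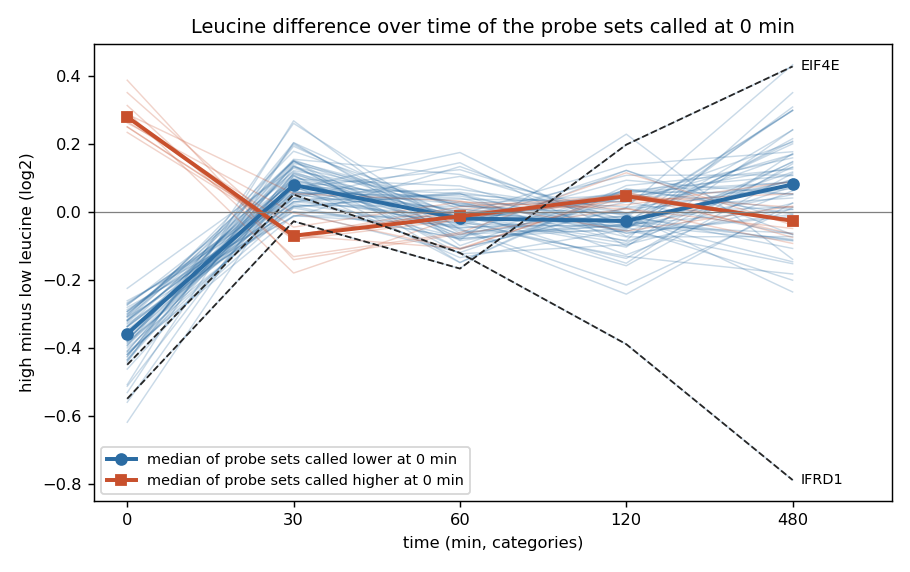
Log2 difference, high minus low leucine, at 0, 30, 60, 120 and 480 min for the called probe sets of 0 min, with a thin line per probe set, thick lines for the medians and dashed lines for EIF4E and IFRD1. The lower set has a median of -0.359 at 0 min and 0.0787 at 30 min, and the higher set 0.279 and -0.0706.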

How the data were processed

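THLE-3 RNA on 20 Affymetrix HG-U133 arrays, part A, was analysed. Values are linear probe set intensity, as deposited by the authors in one table; the summarisation and scaling are not given in the sources used here. A pseudocount of 165.2, the median 10th percentile, was added, log2 taken, and arrays quantile normalized. Weak probe sets below the 40th percentile of mean signal were removed, which left 13329 of 22215 probe sets and 8280 genes. Names came from the platform annotation, in which 19065 probe sets carry 1 symbol, 1043 several and 2107 none.

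limma 3.58.1 in R 4.3.3 fitted 10 group means over all 20 arrays with a trend, two-sided, with Benjamini-Hochberg adjustment over all probe sets. The main fit has the experiment as a block with 9 residual degrees of freedom, since the labels give each array an experiment; the unblocked fit has 10. At 0 min the difference between experiments correlated at r = 0.888 between low and high leucine across probe sets, and arrays of 1 experiment correlated at 0.987 or more, those of different experiments at 0.93 or less. The scripts were tested on simulated data. The rule for named genes took the 16 largest falls, 11 largest rises and called genes with another kept probe set. It also took up to 3 called per list of the 18 lists of 438 genes (otherwise the smallest p). Added to these were ATF4, ASNS, DDIT3, TRIB3, SLC7A11, SLC7A5, BCAT1, BCAT2, PMAIP1, APOE, RAD21 and IFRD1. Some genes that the rule took, such as SLK, CSTF2T, MRPS18B, MMUT and HSP90B1, are not described in the text. Alternatives changed the block, pseudocount, normalization, filter, probe set rule, variance trend and array weights, or left out each array. The comparison and lists were chosen with earlier results of these data known.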

Additional observations from a re-analysis of the deposited data

Results flagged for a closer look

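The difference between leucine levels at 0 min and its mean over 30 to 480 min differed for 142 probe sets in the blocked fit and for 0 in the unblocked fit, where 892 had an unadjusted p under 0.05. The tested value is the later mean minus the 0 min difference, on the log2 scale. It contains the 0 min arrays, so it is not independent of the calls at 0 min, and 63 of the 142 probe sets (44.4%) were also called there. Of those 63, 20 fall outside the rule for named genes and are not listed. For named genes lower at 0 min it was CSGALNACT2 0.59, EIF4E 0.66, UBBP1 0.61, AASDHPPT 0.48, RAD21 0.57, PIK3C2A 0.51, LPP 0.44, HTATSF1 0.42, NHLRC2 0.42, SNRPA1 0.54, KRT7 0.49 and LYPLA1 0.46. It was RPAP3 0.44, LRRC40 0.44, LAMP2 0.44, CUL4A 0.43, GSE1 0.45, KTN1 0.41, PANK3 0.46, AZIN1 0.43, PLEKHB2 0.49, HNRNPR 0.40, IPO7 0.43 and ACSL1 0.38. It was also SNAP23 0.38, HNRNPA3 0.37, WWTR1 0.41, ATP2C1 0.35, ANP32E 0.33, COPB1 0.34, PRPS1 0.33, PLOD2 0.33, CNOT8 0.37, SOX15 0.32, USP7 0.35 and GMFB 0.36. For named genes higher at 0 min it was TRIM10 -0.29, ACTR5 -0.29, CYTH4 -0.28, RHOT2 -0.30, SRF -0.34, OR1A1 -0.37 and DCAF15 -0.46. Of genes not called at 0 min, it was 0.36 for CCNE2, a cyclin of the entry into DNA replication, -0.48 for ATF4 and -0.30 for AARS1, the alanyl-tRNA synthetase.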

How the results depend on the processing

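The count of 77 at 0 min depended on pairing by experiment and on single arrays. Without the replicate block it was 0, with the block by time 334, on the 4 arrays alone with the block 214, with a pseudocount 4 times larger 46, on values as deposited 194, with 1 probe set per gene 46 and with array weights 2. Leaving out 1 array gave 1 to 89, the lowest without the low array of the second experiment. Of the 77, 33 were still called without the low array of the first experiment and 26 without the high array of the second, each with 89 calls, and 4 without the high array of the first. The count of 142 for the change of the difference became 0 without the block, 450 with the block by time, 244 on values as deposited, 73 with 1 probe set per gene and 2 with array weights. Leaving out 1 array gave 2 to 116, with 2 without the low array of the second experiment, 16 without the high array of the first and 94 without the low array of the first. The median ratio of other to called probe sets was 0.251 on values as deposited and 0.192 to 0.256 without 1 array, against 0.109. The share of equal signs between experiments was 58.3% with no filter. The cause of these shifts was not tested. Among the 71 named probe sets, none that was called in the main or another setting reversed in the 16 settings. The median over all probe sets, 0.01, was -0.02 on values as deposited and -0.00828 with median centring. The settings not listed here kept their counts within 1.5 times. With 2 arrays per group, their number limits the precision.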
